A study of Mus musculus with 6 samples.

Results

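The neuregulins and the receptors of the ErbB family were followed across the cell types of the mouse cerebellum in single nuclei. They are 8 of the 32286 genes in each count table and were chosen by name: the 4 ligands Nrg1, Nrg2, Nrg3 and Nrg4, and the 4 receptors Egfr, Erbb2, Erbb3 and Erbb4. All 8 were listed in all 6 tables. The 6 whole cerebella came from 3 Pcp2-ATXN1[82Q] mice (SCA1), whose transgene holds human ATXN1 with a lengthened CAG repeat and is driven in Purkinje cells (PCs) by the promoter of Pcp2, and from 3 wild-type (WT) littermates, all 12 weeks old. Both groups keep their own mouse Atxn1 genes. The groups were matched for sex, each library held the nuclei of 1 mouse, and the tissue was fresh or frozen, without a statement of which was which. UMI counts (unique molecular identifiers, 1 per captured RNA molecule) were summed over the nuclei of each mouse and SingleR cell type label. The questions were which cells carry RNA of the ligands and of the receptors, and whether these levels differ between SCA1 and WT.

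Neuregulins are growth factors with an EGF-like domain that bind ErbB receptors on the same or on neighboring cells. Erbb3 and Erbb4 bind neuregulins, Egfr binds EGF, TGF-alpha and related ligands, and Erbb2 has no known ligand of its own and acts as the partner of the others. Erbb3 lacks most kinase activity and signals through its partners, while Erbb4 is an active kinase. In the nervous system the family is known for myelination, for synapses of interneurons and for the interplay of neurons and glia.

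In the reference annotation of GRCm38 the genes differ widely in length, which matters here since reads on introns were counted. Nrg1 lies on chromosome 8 from 31814551 to 32884029 on the minus strand and spans 1069 kb, with 12 coding transcripts that a count per gene does not tell apart. Nrg2 spans 179.7 kb of chromosome 18, Nrg3 spans 1104 kb of chromosome 14 and Nrg4 spans 106.6 kb of chromosome 9. Egfr, of 166 kb, and Erbb2, of 25.2 kb, both lie on chromosome 11, the first from 16752203 to 16918158 and the second from 98412470 to 98437716. Erbb3 is the shortest member with 22.1 kb on chromosome 10, from 128567523 to 128589652. Erbb4 spans 1076 kb of chromosome 1, from 68032186 to 69108059 on the minus strand.

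The 6 libraries held 45473 nuclei and from 18916647 to 98366627 UMIs each. The library of WT mouse 2 was the shallowest, with a median of 2246.5 UMIs per nucleus and 4784 of its 6710 nuclei under 3000 UMIs. Between 7 and 44 cell barcodes were shared by any pair of libraries, at most 0.421% of the smaller one. SCA1 mouse 1 and WT mouse 1 carry library numbers of another range than the other mice, their shallowest nuclei held 3890 and 3932 UMIs against 1000 to 1739 in the other libraries, and this range was taken as the sequencing batch. PCs of the 3 SCA1 mice held 12, 15 and 19 UMIs of human ATXN1, in 15.4%, 19.2% and 37.9% of nuclei, and those of the WT mice held 0 in 146 nuclei, which allows up to 2.05% of nuclei with a UMI. As most PCs of the SCA1 mice showed no UMI either, this limits nuclei with a UMI and not nuclei with the transgene. Over all nuclei human ATXN1 reached 57, 60 and 60 UMIs in SCA1 and 37, 17 and 15 UMIs in WT.

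Of 24 SingleR labels, 11 had at least 20 nuclei in every mouse, and these hold 44698 nuclei: 292 PCs, 37532 granule neurons, 1243 Bergmann glia (BG), 1014 velate astrocytes (VA), 1384 oligodendrocytes (OL), 1224 Pvalb-Nefh, 458 Pvalb-Rab3b, 289 Pvalb-Cadm1 and 263 Pvalb-Chrm2 interneurons, 757 Slc17a6.Nrgn neurons and 242 nuclei of a label named for Dcn and Nnat. CPM are UMI counts scaled to 1e+06 per library and label. For the single markers in this paragraph the UMIs of a label were first pooled over the mice. Marker genes bore out most of these names, with 659 CPM of Pcp2 and 815 CPM of Calb1 in PCs, 3440 CPM of Slc1a3 in BG, 1107 CPM of Aqp4 in VA and 689 CPM of Mog in OL. The Dcn.Nnat label is listed as endothelial, and of its 4 endothelial markers Flt1 and Cdh5 stood at 101 and 103 CPM there and Cldn5 and Pecam1 at 1.32 and 2.20 CPM. Their sum was 151 to 250.3 CPM over the mice and at most 23.6 CPM in any other of the 11 labels. Beside them stood 413 CPM of Dcn and 346 CPM of Col1a2, genes of fibroblasts, and 582 CPM of the glutamate transporter Slc1a3. It is called Dcn.Nnat nuclei here. In the Pvalb-Chrm2 label 14.4% of nuclei fell in a cluster where it was the most frequent label, and in the Pvalb-Rab3b label 0% did. Most Chrm2 nuclei and all Rab3b nuclei thus lay in clusters where another label was the most frequent.

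The ligands differed in where they were found. Among the 11 labels Nrg1 RNA was concentrated in a pair of neuron labels, Nrg3 was high in all neurons, Nrg2 was spread over neurons and astroglia, and Nrg4 was low throughout. Levels are CPM of the summed counts as mean ± SD over the 6 mice, where not said to be pooled or given by mouse. Since labels were assigned from the expression profile itself, differences between labels are a description and were not tested. Order is described by how many of the 6 mice show it. Below, shares of nuclei with a UMI of a member are means of the percentages of the 6 mice, where not given by mouse.

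Nrg1, the neuregulin best known from myelin and from interneuron synapses, reached 1659 ± 264 CPM in Slc17a6.Nrgn neurons, with a range from 1422 to 2136 CPM. Pvalb-Chrm2 interneurons followed with 885 ± 353 CPM and a range from 246 to 1224 CPM. The order of these 2 labels held in 6 of 6 mice and their ranges did not overlap. Chrm2 interneurons were in turn 9.11 times as high as the next label, Pvalb-Rab3b interneurons with 97.2 ± 70.5 CPM, in 6 of 6 mice. PCs, with 64.5 ± 33.8 CPM, came next, and their range overlapped with those of Rab3b interneurons and of OL, which had 49.4 ± 40.2 CPM. The remaining 6 labels had means from 5.08 CPM in Dcn.Nnat nuclei to 36.2 CPM in Pvalb-Nefh interneurons, and no neighbors in that order were set apart in all mice.

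The Chrm2 label mixed nuclei of unlike Nrg1 level. Clusters of at least 10 such nuclei with high Nxph1, a gene of interneurons that stood between 3027 and 5946 CPM in them, had from 122 to 521 CPM of Nrg1, except for 971 CPM in SCA1 mouse 3. The clusters of lower Nxph1 and higher Slc17a6, the vesicular glutamate transporter, held 1576 CPM of Nrg1 in SCA1 mouse 1, 1824 CPM in SCA1 mouse 2 and 1157 CPM in WT mouse 1. In SCA1 mouse 1 and SCA1 mouse 2 the same clusters held 273 and 87 Slc17a6.Nrgn nuclei, at 1423 and 1513 CPM of Nrg1. The level of the Chrm2 label as a whole is thus partly that of nuclei clustered with Nrgn neurons. Clusters of lower Nxph1 had under 10 Chrm2 nuclei in the other mice. Nrg3 and Erbb4 were also higher in the clusters of lower Nxph1. For SCA1 mouse 1, SCA1 mouse 2 and WT mouse 1, Nrg3 stood at 4080, 4358 and 3191 CPM against 2256, 2095 and 1975 CPM. Erbb4 stood at 537, 603 and 899 CPM against 363, 304 and 264 CPM.

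Nrg3, which binds Erbb4 and is known mainly from neurons, had the highest level of the family. It stood at 5323 ± 1008 CPM in Slc17a6.Nrgn neurons, where 99.0% of nuclei held a UMI of it, and at 3371 ± 766 CPM in Chrm2 interneurons. Pvalb-Cadm1 interneurons followed with 1636 ± 276 CPM, PCs with 1376 ± 349 CPM and granule neurons with 1228 ± 258 CPM. The order of Nrgn over Chrm2 and of Chrm2 over Cadm1 held in 6 of 6 mice, while that of Cadm1, PCs and granule neurons did not. The lowest neuron label was Pvalb-Rab3b with 692 ± 117 CPM, which was 2.65 times the level of the highest glial label, OL with 261 ± 89.0 CPM, in 6 of 6 mice. VA had 175 ± 124 CPM, BG 125 ± 56.9 CPM and Dcn.Nnat nuclei 40.3 ± 27.9 CPM.

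Nrg2, a ligand of Erbb3 and Erbb4 that is known from neurons and astrocytes, had means between 239 and 617 CPM in all neuron labels. Its level was 617 ± 107 CPM in PCs, 544 ± 101 CPM in granule neurons and 479 ± 76.3 CPM in Nefh interneurons. PCs were above granule neurons in 5 of 6 mice, granule neurons above Nefh interneurons in 5 of 6 and Nefh above Rab3b interneurons in 6 of 6, all with overlapping ranges. The other neuron labels had means from 239 to 377 CPM. VA had 228 ± 63.0 CPM and BG 145 ± 29.1 CPM, and VA exceeded BG in 6 of 6 mice. OL stood at 69.5 ± 13.3 CPM and Dcn.Nnat nuclei at 16.6 ± 15.9 CPM, and both steps of this order held in 6 of 6 mice without overlap.

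Nrg4, an Erbb4 ligand known best from fat tissue, stayed under 40 CPM in every one of the 11 labels. Chrm2 interneurons had 38.4 ± 20.5 CPM, Cadm1 interneurons 25.9 ± 5.38 CPM and granule neurons 22.2 ± 2.30 CPM, while PCs had the lowest mean with 2.39 ± 1.61 CPM.

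**Figure D1:**
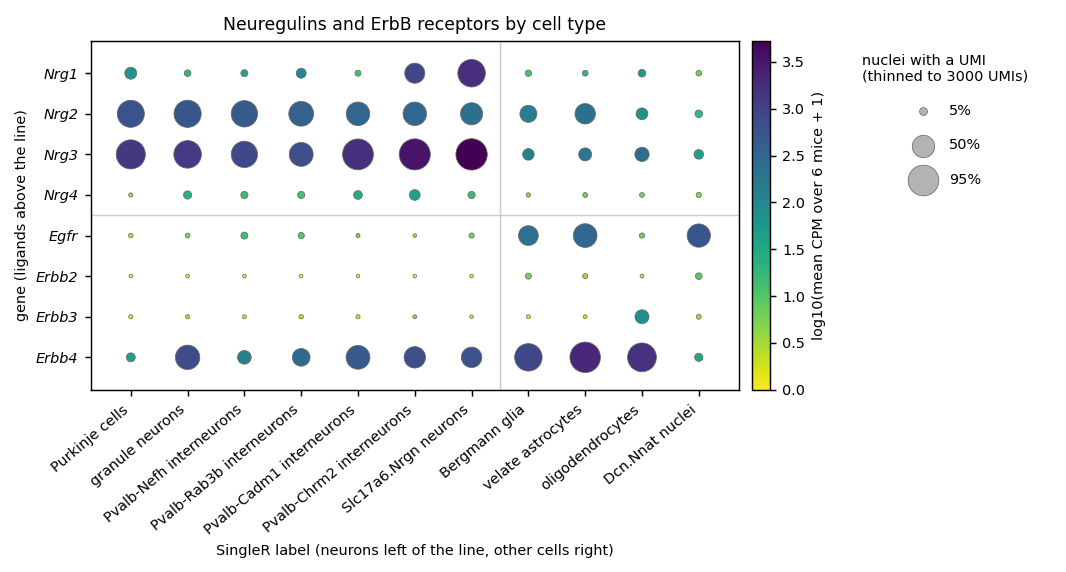
Mean level of each gene over the 6 mice (color, log10 of mean CPM + 1) and share of nuclei with a UMI after thinning each nucleus to 3000 UMIs (dot area), with genes in rows and SingleR labels in columns. Nrg3 is dark across the neurons, Nrg1 in Slc17a6.Nrgn and Pvalb-Chrm2 neurons, Egfr in BG, VA and Dcn.Nnat nuclei, Erbb3 in OL alone above 10 CPM, and Erbb4 in glia and most neurons except PCs.

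The receptors divided the glia. Egfr marked astroglia and Dcn.Nnat nuclei, Erbb3 marked OL, Erbb2 was scarce, and Erbb4 was found in all glia named here and in most neurons.

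Egfr, the receptor of EGF, stood at 538 ± 255 CPM in Dcn.Nnat nuclei, 324 ± 73.5 CPM in VA and 220.4 ± 68.3 CPM in BG. The lowest single value among these 3 labels was 140.2 CPM, in Dcn.Nnat nuclei of WT mouse 1, and the highest value in any of the other 8 labels was 20.9 CPM, in Cadm1 interneurons of SCA1 mouse 2. VA exceeded BG in 6 of 6 mice, and Dcn.Nnat nuclei exceeded VA in 5 of 6. BG were 16.7 times as high as Nefh interneurons, the next label, with 13.2 ± 6.04 CPM. A UMI of Egfr was found in 74.3% of VA nuclei, in 60.04% of BG nuclei and in 2.21% of OL nuclei.

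Erbb2, the receptor without a ligand, had its highest means in the same 3 labels, at a far lower level: 7.57 ± 3.96 CPM in Dcn.Nnat nuclei, 4.95 ± 1.03 CPM in BG and 2.69 ± 1.66 CPM in VA. In BG its level was even over the mice, from 3.78 to 6.75 CPM. The other labels had less than 1 CPM. In PCs and in Rab3b, Cadm1 and Chrm2 interneurons no UMI was found, which at the depth of PCs allows up to 0.285 CPM over the 6 mice.

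Erbb3, a receptor known from the oligodendrocyte and Schwann cell lineages, stood in OL at 76.5 ± 4.87 CPM with a range from 70.2 to 83.3 CPM. This was 28.5 times the next label, Chrm2 interneurons with 2.68 ± 2.32 CPM, and the order held in 6 of 6 mice. As its gene is short, its level per kb of gene, 3.46 CPM, was near that of Nrg2 in PCs, 3.43 CPM, of Egfr in Dcn.Nnat nuclei, 3.24 CPM, and below that of Nrg3 in Nrgn neurons, 4.82 CPM. Erbb4 in VA and Nrg1 in Nrgn neurons came to 1.89 and 1.55 CPM per kb.

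Erbb4, the main neuregulin receptor of neurons, was highest in glia here. VA had 2036 ± 633 CPM, OL 1562 ± 344 CPM and BG 859 ± 151 CPM, and this order held in 6 of 6 mice at both steps. Granule neurons with 744 ± 189 CPM, Chrm2 interneurons with 710 ± 334 CPM and Nrgn neurons with 618 ± 179 CPM followed, and their order varied between mice. Of the interneurons, Cadm1 had 482 ± 116 CPM, Rab3b 276 ± 108 CPM and Nefh 132 ± 67.2 CPM, in this order in 6 of 6 mice. PCs stood at 40.8 ± 41.8 CPM and Dcn.Nnat nuclei at 32.7 ± 24.0 CPM, below the means of every other label. A UMI of Erbb4 was found in 96.3% of VA nuclei, 88.5% of OL nuclei and 87.7% of BG nuclei, against 21.5% of PC nuclei, although the median PC nucleus held 36466.5 UMIs and the median VA nucleus 7411.5.

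**Figure D2:**
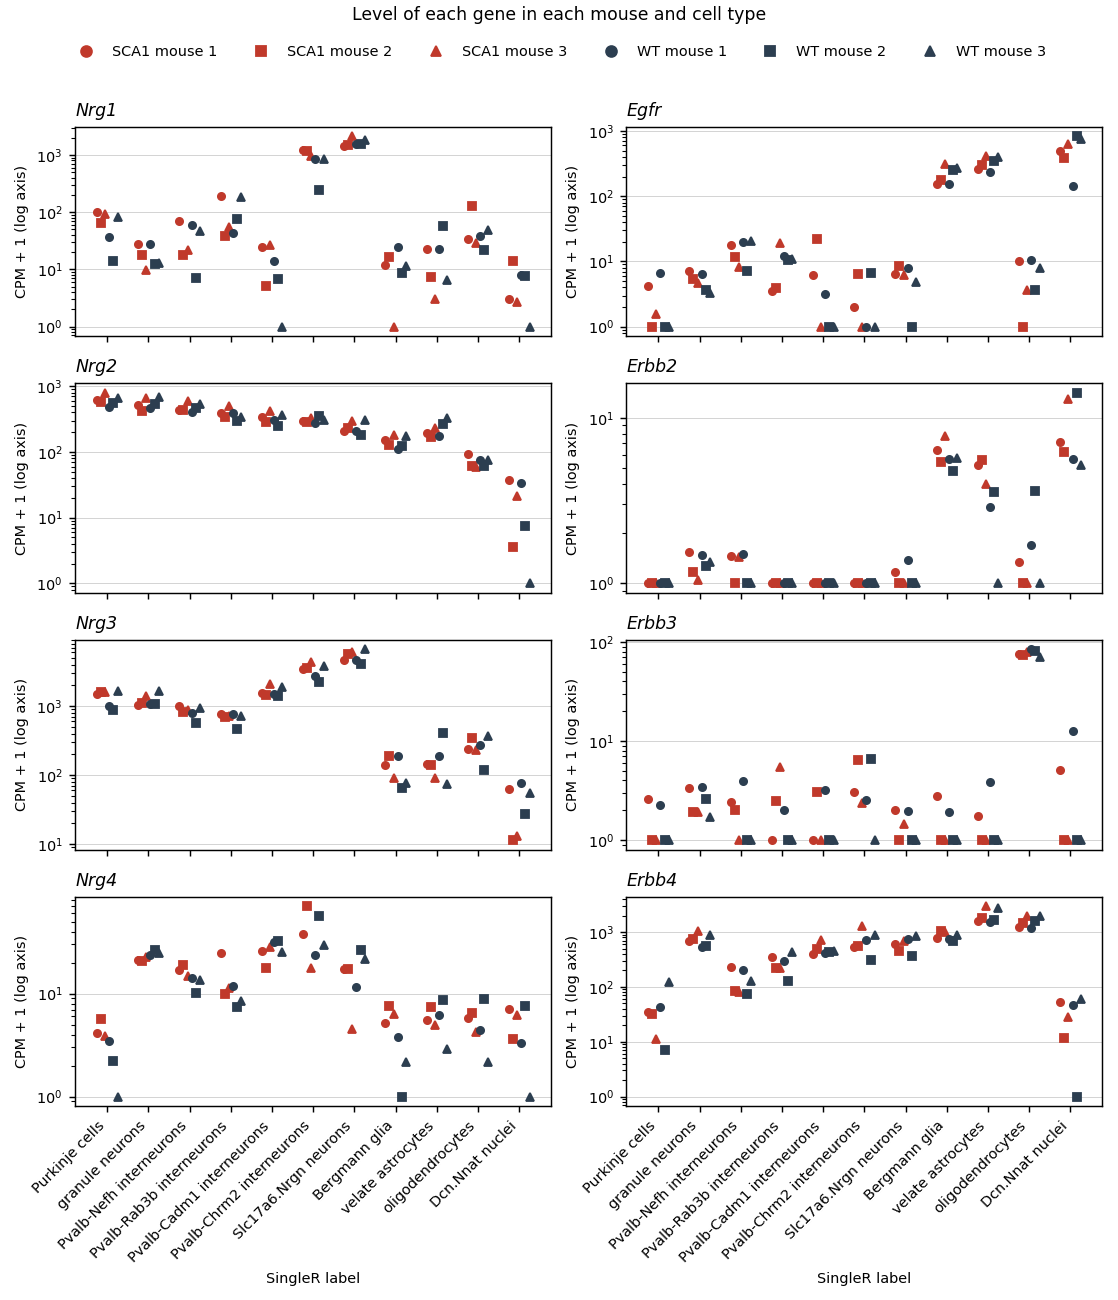
Level of each gene in each mouse (CPM + 1, log axis) by SingleR label, with red marks for the 3 SCA1 mice and dark marks for the 3 WT mice and 1 shape per mouse number. The 6 Erbb3 values in OL lie between 70.2 and 83.3 CPM, and Egfr in BG, VA and Dcn.Nnat nuclei lies above all values of the other labels.

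Granule neurons made up most of the nuclei, so that their free RNA can reach the counts of other labels. To set a scale, each level was divided by the level in granule neurons and set beside the same ratio of 5 granule neuron markers. In PCs the markers stood at 4.35% to 7.31% of their granule level, and Erbb4 stood within that range at 5.49%, whereas Nrg2 and Nrg3 stood at 113% and 112%. In BG, where the markers stood at 11.1% to 22.6%, Nrg3 came to 10.2% and Nrg4 to 15.1%, Nrg2 to 26.6% and Erbb4 to 115%. In VA, with markers at 15.1% to 30.3%, Nrg3 came to 14.2% and Nrg2 to 41.9%, and Erbb4 to 274%. In OL the markers stood at 14.1% to 26.7%, Nrg2 at 12.8%, Nrg3 at 21.3% and Erbb4 at 210.0%. In Dcn.Nnat nuclei Nrg2 and Nrg3 stood at 3.04% and 3.28%, below the 7.33% to 19.9% of the markers, and Erbb4 was below them as well. In Nefh interneurons Erbb4 came to 17.7%, inside the markers' 11.4% to 18.0%. The value of Erbb4 in PCs rested on WT mouse 3, where 1 nucleus held nearly all of its UMIs: single mice ran from 1.01% to 13.5%, and without WT mouse 3 the value was 3.48%, below the markers. Among these 4 genes, levels inside or under the marker range were thus those of Erbb4 in PCs, Nefh interneurons and Dcn.Nnat nuclei, of Nrg3 in BG, VA, OL and Dcn.Nnat nuclei, of Nrg2 in OL and Dcn.Nnat nuclei and of Nrg4 in BG, VA, OL and Dcn.Nnat nuclei. The part of free RNA in them was not tested.

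**Figure D3:**
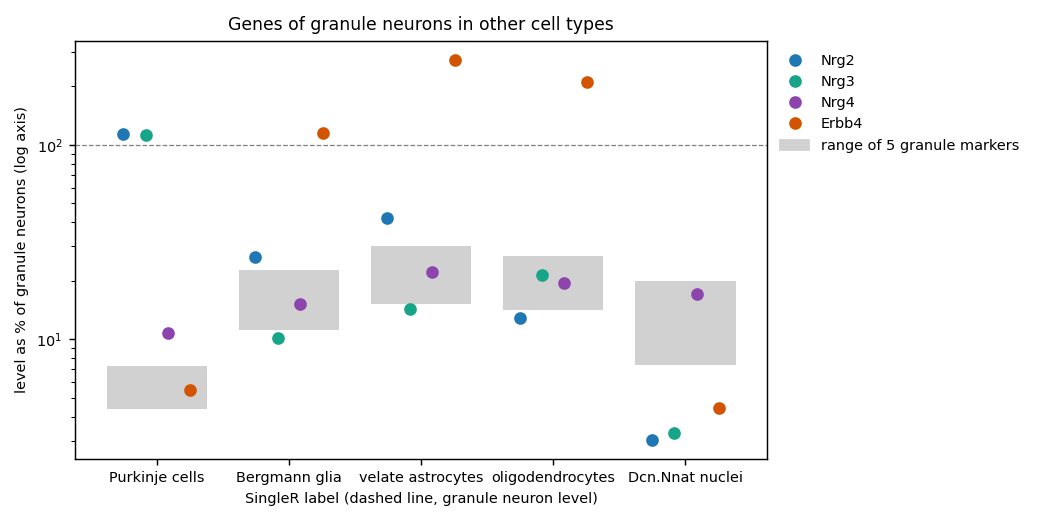
Level of Nrg2, Nrg3, Nrg4 and Erbb4 in 5 labels as a percentage of the granule neuron level (log axis), beside the range of 5 granule neuron markers (gray). Erbb4 in PCs lies inside the gray range at 5.49% (3.48% without WT mouse 3), and in BG, VA and OL it lies above the granule neuron level, at 115%, 274% and 210.0%.

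The OL label also held nuclei of the precursor lineage. Of its 1384 nuclei, 92 had a UMI of Pdgfra, the PDGF receptor that marks oligodendrocyte precursors. Those had 1484 ± 533 CPM of Nrg3 against 123 ± 54.7 CPM in the other 1292 nuclei, and 2794 ± 646 CPM of Erbb4 against 1432 ± 319 CPM. Nrg1 stood at 159 ± 83.3 CPM in them, with a range over the mice from 67.8 to 316 CPM, and at 36.5 ± 47.3 CPM in the others, with a range from 0 to 131 CPM. Erbb3 was found in both, with 52.9 ± 34.8 CPM and 79.5 ± 5.30 CPM. In the nuclei with a Pdgfra UMI, Mog stood at 474, 91.2 and 7.68 CPM in the SCA1 mice and at 235, 0 and 0 CPM in WT. RNA of the OL marker Mog was thus also present in this group in some mice. In the same order its Erbb3 stood at 93.9, 63.2 and 0 CPM and at 60.3, 76.5 and 23.7 CPM, with 1 UMI in WT mouse 2. In the OL label as a whole 124 of the 166 Nrg1 UMIs of SCA1 mouse 2 lay in 1 nucleus. The split was chosen after the values were seen and is a description.

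Rarer labels held the highest Nrg1 level in the data. In the 240 nuclei of the Gad1Gad2.Lgi2 label, 47.9% of them in a cluster where it was the most frequent label, Nrg1 reached 4357 ± 1085 CPM over the mice, from 3028 CPM in WT mouse 2 to 6037 CPM in WT mouse 3, and Nrg3 reached 2820 ± 197 CPM. In the 104 nuclei of the Slc17a6.Sln label, 485 CPM of Lmx1a and 106 CPM of Eomes, genes of unipolar brush cells, were found in UMIs pooled over the mice. Nrg1 stood there at 1247 ± 314 CPM, Nrg3 at 3584 ± 939 CPM and Erbb4 at 20.0 ± 10.9 CPM. Of the 83 choroid plexus nuclei 49.4% lay in a cluster where that label was the most frequent. Over these nuclei of all mice Nrg1 came to 603 CPM and Erbb4 to 878 CPM, with 95% counting intervals from 555 to 655 CPM and from 820 to 940 CPM (rare labels below are pooled in the same way). Of the 12 nuclei labelled polydendrocyte 0% lay in a cluster where that label was the most frequent. These 12 nuclei gave 1281.5 CPM of Nrg1, 2728 CPM of Erbb4 and 41.3 CPM of Erbb3. Their Nrg3 level, 64.3 CPM, was far below that of the OL nuclei with a Pdgfra UMI. In 125 microglia nuclei no UMI of Erbb2 or Erbb3 was found, which allows up to 4.85 CPM, and Egfr stood at 58.2 CPM.

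For each member but Erbb2, which reached 10 CPM in no label, the genes whose levels over the 11 labels were most like its own were listed by Pearson's r on log2(CPM + 1). These points share libraries and differ in depth, and r is given as a description. For Nrg1 they were Dlgap2, Il1rapl2 and A330102I10Rik, with r from 0.943 to 0.951. For Nrg2 they were Gm16183, 1700110K17Rik and Astn2, from 0.945 to 0.951. Nrg3 was closest to Nrg3os, at 0.998, then Gm20642 and Reep1. Nrg3os is annotated on the strand opposite to Nrg3, and whether the counting used strand is not given in the sources used here, so that reads of this pair may not be told apart. Nrg4 was closest to Syt3, Tmem131 and Gm31508, from 0.962 to 0.972, and Egfr to Mterf4, Apobec3 and Parp3, from 0.968 to 0.972. Erbb3 was closest to Adipor2, Gm38642 and Depdc1b, from 0.974 to 0.986, and Erbb4 to Gm17227, Cdh20 and Ank, from 0.906 to 0.958. Among these 7 members r was highest between Nrg1 and Nrg3, at 0.754, and lowest between Nrg3 and Egfr, at -0.858.

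Other genes of the pathway were taken from a list of 81 genes by role. Of the 7 other ligands of the EGF family, Tgfa was highest in OL with 74.4 ± 10.4 CPM and Hbegf in PCs with 49.8 ± 11.3 CPM. Egf and Btc stayed at or under 10.9 and 6.21 CPM in their highest labels, and Areg, Ereg and Epgn were at or near 0. Of the inhibitors, Lrig1, which promotes the breakdown of ErbB receptors, was highest in BG with 769 ± 248 CPM, and Errfi1, which binds and blocks their kinase domain, in Dcn.Nnat nuclei with 205 ± 51.8 CPM. The adaptor Gab1 and the scaffold Erbin, which binds Erbb2, were highest in OL with 585 ± 149 CPM and 588.7 ± 119.9 CPM.

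SCA1 was then compared with WT within each label. No member was called as different between the groups in any label by edgeR's quasi-likelihood test with batch as a term. Of the 88 pairs of a member and a label 58 passed the filter on low counts, and 0 of the 58 were called, which took an adjusted p (Benjamini-Hochberg, over all genes of the label) no higher than 0.05, with 1 of 58 at an unadjusted p under 0.05. DESeq2 and limma-trend on the same sums also called 0, where they called 0.0673% and 0.000811% of all pairs of a gene and a label. The study's own kind of test, limma-trend on single nuclei, which takes nuclei as replicates, was run on 10 labels without granule neurons and called 3 of 62 members, where it called 2431 of 138654 pairs over all genes, 1.75%. Over all genes of the 11 labels edgeR called 2 of 123325 pairs of a gene and a label, 0.00162%, and in PCs 0 of 10517 genes, 0%, with 719 at an unadjusted p under 0.05. Against this background the count of 0 members is no result about the members.

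The log2 fold changes of the 58 pairs ran from -1.41 to 1.58 and 32 of them were above 0, with a median of 0.04. In 30 pairs the 95% interval lay wholly within 1 log2 unit of 0, so that a 2-fold difference lay outside it. This held for Nrg2 in 10 of 11 labels tested, for Nrg3 in 6 of 11, for Erbb4 in 6 of 11, for Egfr in 3 of 7 and for Nrg1 in 2 of 10.

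**Figure D4:**
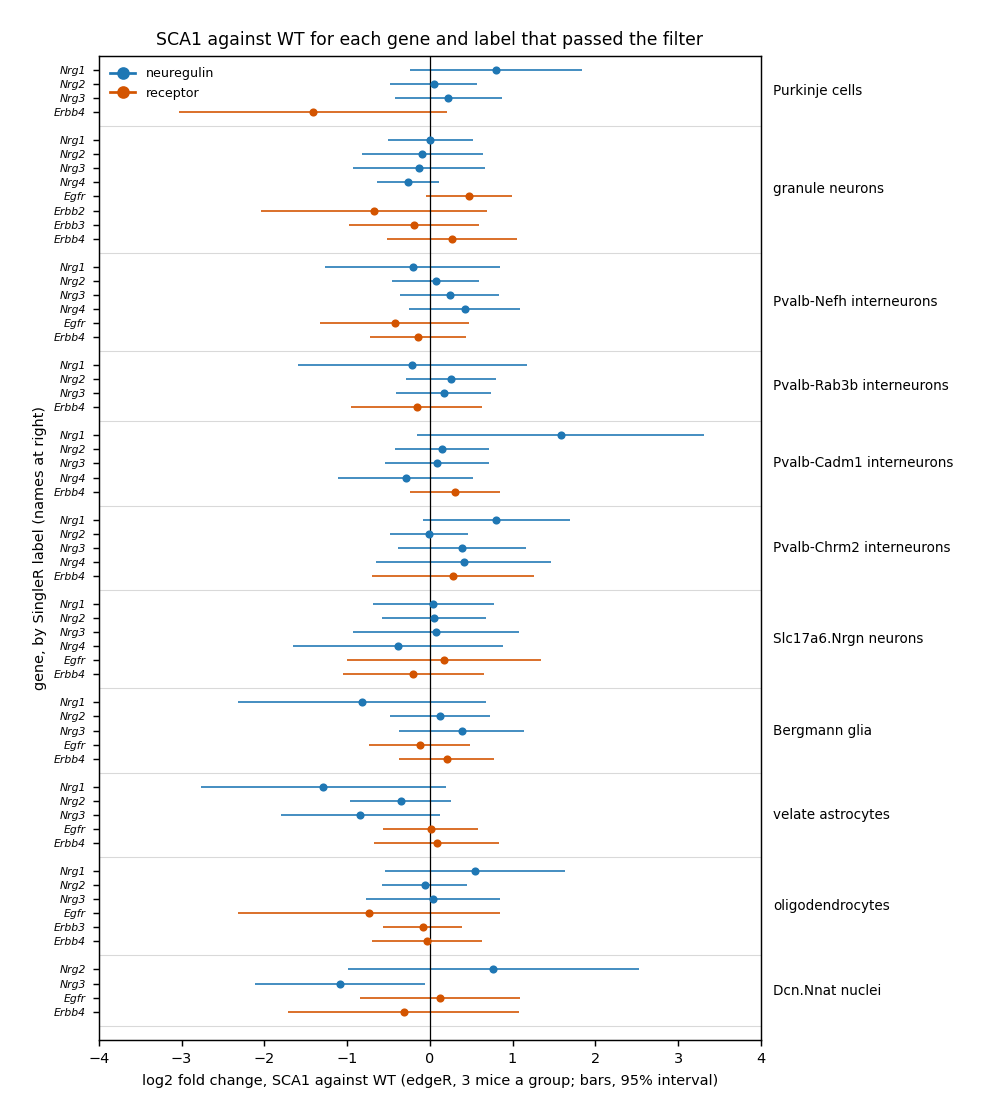
Log2 fold change of SCA1 against WT with its 95% interval (edgeR, 3 mice a group) for the 58 pairs of gene and label that passed the filter, neuregulins in blue and receptors in orange. All intervals but that of Nrg3 in Dcn.Nnat nuclei hold 0, and none of the 58 passed the adjusted threshold.

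Nrg1 in PCs was not called by edgeR on the sums and was called by the test on single nuclei (log2 fold change 0.93, limma-trend adjusted p = 2.01e-08). That test called 532 of 13906 genes in PCs. The paper, with this kind of test on the same mice, already lists Nrg1 among its top upregulated genes of SCA1 PCs. The call is therefore not independent of that result. The value of Nrg1 in PCs varied with the nuclei and mice included. Its level was 100.01, 64.8 and 92.7 CPM in the SCA1 mice and 36.4, 13.3 and 79.9 CPM in the WT mice. SCA1 mouse 2 lay below WT mouse 3, so that the groups overlapped. The log2 fold change was 0.80 (SE 0.47, 95% interval -0.24 to 1.84, n = 3 mice a group, edgeR adjusted p = 0.888).

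In the WT mice a large part of these UMIs came from single nuclei. Of 118 Nrg1 UMIs in PCs of WT mouse 1, 58 lay in 1 nucleus, in which Purkinje markers summed to 375 CPM against a median of 16958 CPM over the PCs of that mouse, and whose cluster was mostly of Slc17a6.Nrgn neurons. In WT mouse 3, 45 of 89 UMIs lay in 1 nucleus, with Purkinje markers at 17159 CPM. In SCA1 mice the top nucleus held 10.3%, 17.1% and 10.5% of the UMIs. Without the nucleus with most Nrg1 UMIs in each mouse, a choice made after seeing the data, the levels were 91.6, 54.8 and 86.0 CPM against 19.0, 9.84 and 41.8 CPM, and the groups no longer overlapped. The log2 fold change was then 1.55 (SE 0.44, edgeR adjusted p = 0.333). Without WT mouse 3 it was 1.76 (edgeR adjusted p = 0.140), and without WT mouse 2 it was 0.42 (adjusted p = 0.915).

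The share of PC nuclei with an Nrg1 UMI did not overlap between the groups when all nuclei of the label were used. It was 75.4% (49 of 65 nuclei), 36.5% (19 of 52) and 79.3% (23 of 29) in SCA1 and 35.5% (27 of 76), 17.1% (7 of 41) and 27.6% (8 of 29) in WT, with 95% Wilson intervals from 63.7% to 84.2%, 24.8% to 50.1%, 61.6% to 90.2%, 25.7% to 46.7%, 8.53% to 31.3% and 14.7% to 45.7% in that order (counting error only). Every SCA1 mouse lay above every WT mouse, although SCA1 mouse 2 and WT mouse 1 differed by 1 percentage point. By an exact two-sided permutation test over the mice p was 0.1, the smallest that 3 against 3 can give, so the design cannot reach 0.05. How many of all genes in PCs lack overlap by this measure was not counted, so it is no result particular to Nrg1. When each nucleus was thinned to 3000 UMIs the shares were 27.7%, 13.7% and 25% against 2.63%, 2.86% and 8%, again without overlap (exact permutation p = 0.1). With only nuclei whose label was that of their cluster the groups met, with 36.7% in SCA1 mouse 2 and 37.7% in WT mouse 1. For comparison, 6.29% of granule nuclei and 5.74% of BG nuclei held an Nrg1 UMI, at median depths of 5923 and 8341 UMIs against 36466.5 in PCs, and 3.28% and 2.84% after thinning. The thinned shares of WT mouse 1 and WT mouse 2, 2.63% and 2.86%, were near these values. Whether granule neurons and BG show a background level of Nrg1 was not tested.

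Nuclei with many Nrg1 UMIs were few. In the SCA1 mice 5, 2 and 6 PC nuclei held 10 or more, and in the WT mice 1, 0 and 2. The median nucleus stood at 83.4, 0 and 75.4 CPM of Nrg1 in SCA1 and at 0 in all 3 WT mice. The marker lists of PCs moved with the groups as well: the 6 Purkinje markers summed to 11365 to 14730 CPM in SCA1 and 15688 to 19333 CPM in WT, and 8 interneuron markers to 444 to 561 CPM against 375 to 441 CPM, both without overlap. The interneuron list includes Gad1 and Gad2, which are part of the name of the PC label itself. It also includes Slc32a1, which the paper reports as increased in SCA1 PCs. Its sum is thus not a measure of interneuron RNA alone. The Purkinje list includes Calb1 and Rgs8, which the paper reports as decreased in SCA1 cerebella. It also holds Itpr1, which the paper reports as decreased in SCA1 PCs. The sum of the Purkinje list is thus not a measure of the purity of PC nuclei alone. The part of both marker lists in the Nrg1 values was not tested. By CPM, 1219 of 10517 genes in PCs had all SCA1 mice above all WT mice and 273 had them below.

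**Figure D5:**
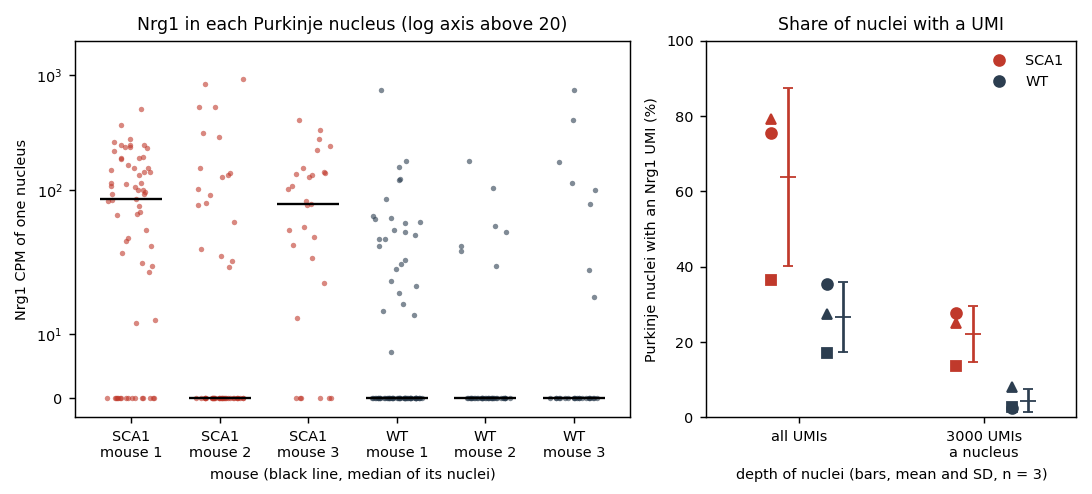
Left, Nrg1 level of each PC nucleus (CPM, log axis above 20) by mouse, with the median as a black line. Right, share of PC nuclei with an Nrg1 UMI in each mouse, at full depth and thinned to 3000 UMIs, with mean ± SD over 3 mice; the SCA1 shares lie at 36.5% to 79.3% and the WT shares at 17.1% to 35.5%.

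Nrg2 and Nrg3 in PCs gave no such pattern. Nrg2 stood at 611, 583 and 797 CPM in SCA1 and 487, 552 and 670.5 CPM in WT, with a log2 fold change of 0.05 (SE 0.24, 95% interval -0.48 to 0.57, edgeR adjusted p = 0.999). Nrg3 stood at 1488, 1619 and 1608 CPM in SCA1 and 1007, 866 and 1669 CPM in WT, and the log2 fold change was 0.23 (SE 0.29, 95% interval -0.42 to 0.87, edgeR adjusted p = 0.999). In both the groups overlapped.

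Erbb4 in PCs rested on few nuclei. Its level was 34.4, 30.5 and 10.3 CPM in SCA1 and 42.6, 6.03 and 121 CPM in WT, and the log2 fold change was -1.41 (SE 0.73, edgeR adjusted p = 0.817). Of the 135 UMIs in WT mouse 3, 128 lay in 1 nucleus. Without the nucleus with most Erbb4 UMIs in each mouse the value turned to 0.79 (adjusted p = 0.880), and without the filter on low counts, with all nuclei, edgeR called it at -1.40 (adjusted p = 7.02e-04), where that fit called 223 of 21377 genes in PCs, 1.04%.

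In the other labels edgeR on the sums called no member, while the test on single nuclei called Nrg2 and Nrg3 in Nefh interneurons. In that label it called 751 of 15180 genes, 658 of them higher in SCA1. The SCA1 and WT mice overlapped in both members there. SCA1 and WT mice did not overlap in 3 of the 58 pairs, where 5.51% of all 123325 pairs of a gene and a label did not overlap, so that the share of the members, all 3 named here, is close to that of all genes. Nrg4 in granule neurons stood at 20.0, 19.7 and 21.5 CPM in SCA1 and 22.7, 25.7 and 23.9 CPM in WT, a log2 fold change of -0.26 (SE 0.16, edgeR adjusted p = 1.00). In Nefh interneurons Nrg4 had the other direction, with 16.0, 18.1 and 13.8 CPM against 13.1, 9.09 and 12.4 CPM and a log2 fold change of 0.42 (SE 0.30). Nrg1 in Chrm2 interneurons stood at 1224, 1192 and 947 CPM in SCA1 and 849.9, 246 and 852 CPM in WT, and the log2 fold change was 0.81 (SE 0.40, edgeR adjusted p = 1.00). SCA1 mouse 3, WT mouse 2 and WT mouse 3 had at least 10 nuclei of this label only in a cluster of high Nxph1. In the high-Nxph1 cluster of each mouse, Nrg1 stood at 472, 122 and 971 CPM in SCA1. In WT it stood at 346, 291 and 521 CPM there, and the groups overlapped. The part of the mixture in the difference of the whole label was not tested.

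Nrg3 in Dcn.Nnat nuclei was the pair with an unadjusted p under 0.05. It stood at 61.4, 10.5 and 12.0 CPM in SCA1 and 77.1, 26.3 and 54.3 CPM in WT, with a log2 fold change of -1.08 (SE 0.47, edgeR adjusted p = 1.00), and the groups overlapped. Nrg1 in Cadm1 interneurons had the largest log2 fold change of the 58, 1.58 (SE 0.80, edgeR adjusted p = 1.00), on levels of 23.7, 4.17 and 25.8 CPM against 13.2, 5.70 and 0 CPM.

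In VA the members with the lowest p were Nrg1 and Nrg3. Nrg1 stood at 21.3, 6.42 and 1.99 CPM in SCA1 and 22.0, 55.9 and 5.64 CPM in WT, with a log2 fold change of -1.29 (SE 0.68, edgeR adjusted p = 1), and Nrg3 at 145, 138 and 89.6 CPM against 191, 412 and 73.3 CPM, with -0.84 (SE 0.44, edgeR adjusted p = 1). In both the groups overlapped and WT mouse 2 was highest, and without it the log2 fold changes were -0.16 and 0.08.

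Erbb4 in granule neurons stood at 699, 737 and 1024 CPM in SCA1 and 539, 563 and 899 CPM in WT, and the groups overlapped, while each SCA1 mouse was above the WT mouse of its number. The log2 fold change was 0.27 (SE 0.33, edgeR adjusted p = 1.00), and blocking on the mouse number gave 0.28 (SE 0.09, adjusted p = 0.832).

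The receptors with high levels outside neurons were not called either. Erbb3 in OL stood at 74.9, 72.6 and 77.5 CPM in SCA1 and 83.3, 80.3 and 70.2 CPM in WT, a log2 fold change of -0.09 (SE 0.22, 95% interval -0.56 to 0.39). Erbb4 in OL gave -0.04 (SE 0.30) and Erbb4 in BG 0.20 (SE 0.26). Egfr in BG stood at 153, 175 and 313 CPM in SCA1 and 154, 254 and 272 CPM in WT, a log2 fold change of -0.12 (SE 0.28). Egfr in Dcn.Nnat nuclei gave 0.12 (SE 0.45, 95% interval -0.84 to 1.09), a wide interval on levels of 489, 388 and 622 CPM against 140.2, 836 and 751 CPM.

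An interaction term asked whether the SCA1 effect in a label differed from that in granule neurons, measured in the same mice. Of 73 pairs 0 were called by edgeR, with 5 at an unadjusted p under 0.05. Over all genes 2 of 168549 pairs were called, 0.00119%, with 3768 at an unadjusted p under 0.05. For Nrg1 in Chrm2 interneurons the difference was 1.01 (SE 0.34, edgeR adjusted p = 1.00), and for Nrg1 in PCs it was 0.99 (SE 0.64, edgeR adjusted p = 1). For Erbb4 in PCs it was -1.38 (SE 0.72, adjusted p = 1).

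Within the SCA1 mice PC nuclei with a UMI of human ATXN1 (hATXN1+) were set against those without one. The fit called 117 of 8570 genes, 1.37%, with 857 at an unadjusted p under 0.05, and 0 of the 4 members tested, with 1 at an unadjusted p under 0.05. The 1 was Erbb4, with 4 UMIs in 10 hATXN1+ nuclei and 83 in 55 hATXN1- nuclei of SCA1 mouse 1, 9 in 10 and 24 in 42 of SCA1 mouse 2, and 2 in 11 and 16 in 18 of SCA1 mouse 3. Of these hATXN1- UMIs 22, 10 and 9 lay in 1 nucleus of each mouse. The share of nuclei with an Erbb4 UMI was higher in hATXN1+ nuclei of SCA1 mouse 1 (4 of 10 against 15 of 55) and SCA1 mouse 2 (5 of 10 against 8 of 42). It was lower in SCA1 mouse 3 (2 of 11 against 4 of 18). The log2 fold change of Erbb4 in the sums was -1.47 (SE 0.44, edgeR adjusted p = 0.121), and without SCA1 mouse 2 it was -2.29 (adjusted p = 0.0256), in a fit that called 1.39% of all genes. The hATXN1+ nuclei were deeper, with medians of 41307, 34274.5 and 58288 UMIs against 37282, 7287.5 and 56243.5. Nrg1, Nrg2 and Nrg3 gave 0.16 (SE 0.24), -0.29 (SE 0.15) and 0.11 (SE 0.15).

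The other genes of the pathway list did not stand apart from this. Over the 11 labels 754 pairs of a listed gene and a label were tested and 0 were called in either direction by edgeR, with 10 at an unadjusted p under 0.05, while the test on single nuclei called 13 of 739, 1.76%, which is near its 1.75% over all genes. In PCs 66 of the 81 genes were tested, 28 of them with a log2 fold change above 0, and their median was -0.02 beside 0.02 over all genes tested. The lowest p in PCs were those of Map2k1, a kinase of the MAP kinase cascade, with -0.65 (SE 0.25, edgeR adjusted p = 0.593), of the adaptor Shc4, with -0.59 (SE 0.23, adjusted p = 0.595), and of Bace1, a protease that cleaves Nrg1, with 0.52 (SE 0.24, adjusted p = 0.757). Bace1 stood at 35.6, 38.9 and 37.2 CPM in SCA1 and 24.4, 21.7 and 21.5 CPM in WT, without overlap. In PCs 1219 of the 10517 genes tested likewise had all SCA1 mice above all WT mice.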

How the data were processed

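Nuclei of whole cerebella were captured with 10x Genomics chemistry, and the deposited tables hold UMI counts per gene and nucleus, which the authors did not normalize. Before depositing them the authors aligned reads to mm10 plus the locus of human ATXN1 (the methods name Cell Ranger 5.0.1, and the submitters' processing notes also name 4.0.0 and 6.0.1), counted intronic reads and removed debris with DIEM, at a higher UMI minimum in libraries of the first run. They also deposited a Seurat 4.0.4 cluster and a SingleR label per nucleus, which were used as given. No doublet caller was run, and the number of nuclei in the files is below that stated by the study.

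Counts were summed per mouse and label. Levels are CPM of total UMIs. Groups were tested with edgeR 4.0.16 (R 4.3.3; TMM, filterByExpr with minimum count 10 and minimum total 15) with genotype and batch as terms, the design of the study's methods, and p-values were adjusted over all genes tested in a label. DESeq2 1.42.0, limma 3.58.1 and scran 1.30.0 served the alternatives, with a prior count of 2 for limma-trend. Batch was inferred from the library numbers. The study kept nuclei whose cluster and SingleR label agreed, while here the SingleR label alone was used and agreement was an alternative. Same-numbered mice were checked for deviations in common. Their correlation ran over the labels from 0.4865 to 0.856 for pair 1 and from 0.422 to 0.761 for pair 3. For pair 2 it was over 0.1 in granule neurons, VA and the Nefh, Rab3b and Cadm1 interneurons, and under 0.1 in the other labels. The batch term of the main fits covers pair 1 alone. The edgeR fits were tested on simulated data with a fixed dispersion. The simulation held no batch effect, no likeness of same-numbered mice and no outlier nuclei, so it does not cover these features of the data. Intervals and limits for a count of 0 (3 counts) cover counting error only.

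The members, the pathway list and the markers were chosen with earlier results of these data known. The text names the 8 members, with fold changes in PCs and for pairs in other labels chosen with their values in view, and listed pathway genes that were called or, in PCs, the 3 with the lowest p, and for each member the 3 genes with the highest Pearson's r over labels among genes with at least 10 CPM in a label. Pathway levels are named for the highest label of a gene and were chosen after their values were seen.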

Additional observations from a re-analysis of the deposited data

How the results depend on the processing

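In SCA1 against WT no member passed the threshold under the other settings tried, except for 1 with no filter on low counts (Erbb4 in PCs) and 3 with single nuclei as replicates (Nrg1 in PCs, Nrg2 and Nrg3 in Nefh interneurons). Over all genes of the 11 labels, with 2 calls, the count was 83 with DESeq2, 10 with RLE size factors, 1 with limma-trend on sums, 0 without the batch term, 346 with no filter, 2431 with single nuclei (over 10 labels, as granule neurons were not run), 1 when thinned to 3000 UMIs, and 2 to 16 with 1 mouse left out. In PCs, with 0 calls, it was 65 with DESeq2, 8 with RLE size factors, 1 with labels that match the cluster, 2 with library size only, 223 with no filter, 532 with single nuclei, 1 when thinned, and 0 to 7 with 1 mouse left out. It was 13, 1 and 12 without the PC nucleus of each mouse with most Erbb4, Nrg1 or Nrg2 UMIs, a choice made after seeing the data. For the difference from granule neurons, with 2 calls, it was 14 with matching labels, 146 with no filter and 1 to 271 with 1 mouse left out, 271 without WT mouse 1. Between hATXN1+ and hATXN1- PCs, with 117 calls, it was 2 when thinned, and 0 to 1 members were called with 1 mouse left out (Erbb4, without SCA1 mouse 2). The pathway list had 13 calls with single nuclei.

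With the replicate number as a block, 0 of 58 members were called by edgeR (8 at an unadjusted p under 0.05, 13.8%, beside 4.62% of all pairs of a gene and a label: Nrg1 in PCs, VA and Chrm2, Nrg3 in VA, Nefh and Dcn.Nnat, and Nrg4 and Erbb4 in granule neurons), and the genes called were 203 over all labels, 184 in PCs and 13 in granule neurons (1 without the block). Nrg1 in PCs was then 0.95 (edgeR adjusted p = 0.179). In 5 of 11 labels, not PCs, each mouse deviated most like the mouse of its own number.

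Of the fold changes named, these took the other sign, with the cause not tested. Erbb4 in PCs was 0.019 with single nuclei, 0.79 without the top nucleus and -1.98 to 0.19 with 1 mouse left out (0.19 without WT mouse 3). Leaving out 1 mouse gave -0.11 to 0.22 for Nrg2 in PCs, -0.0062 to 0.60 for Nrg3 in PCs, -1.22 to 0.08 for Nrg3 in VA, -0.62 to 0.56 for Egfr in Dcn.Nnat nuclei, -0.42 to 0.12 for Egfr in BG, -0.19 to 0.12 for Erbb4 in OL and -0.26 to 0.44 for Nrg1 between hATXN1+ and hATXN1- PCs. Egfr in Dcn.Nnat nuclei was -0.17 without the batch term, Egfr in BG 0.054 when thinned, Erbb3 in OL 0.036 with nuclei of at least 3000 UMIs and 0.16 when thinned, Erbb4 in OL 0.049 with single nuclei, and Nrg2 between hATXN1+ and hATXN1- PCs 0.13 when thinned. The Erbb3 level in OL was 84.2 CPM as a mean over nuclei. With matching labels Rab3b, Chrm2, Nrgn and Dcn.Nnat could not be fitted, as at least 1 mouse had no nuclei left, and thinning left Nrg1 and Erbb4 untested between hATXN1+ and hATXN1- PCs. Members at a few CPM, such as Erbb2, are limited by depth.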
